A study of Mus musculus with 5 samples.

Results

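Growth factor receptors, their ligands, and the PI3K, mTOR and MAPK genes that carry their signal into the cell were examined for nearby ZFP24 binding sites in cells of the oligodendrocyte lineage. The set held 45 named mouse genes out of 21755 protein-coding genes on chromosomes 1 to 19 and X, and all 45 were found in the GENCODE M21 basic annotation. It comprised 16 ligand and receptor genes, 11 genes of the PI3K and AKT step, 9 mTOR genes and 9 RAS and MAPK genes. A gene was counted as near a peak when the centre of a deposited peak lay within 10 kb of the start of any of its transcripts. Their counts are set beside the share of all protein-coding genes, and no p-value is given.

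ZFP24, also called ZFP191 or ZNF24, is a zinc finger transcription factor, and its sites were mapped by chromatin immunoprecipitation and sequencing (ChIP-seq) with an antibody against ZNF24. The groups were wild-type and Zfp191-null oligodendrocyte progenitor cells (OPC), and wild-type and Zfp191-null differentiated oligodendrocytes (OLG), all from C57BL/6 mouse brain at postnatal day 7 and purified by immunopanning, plus an input pooled over both genotypes and both cell types. To obtain OLG, OPC were differentiated in culture over 5 days, with PDGF left out and triiodothyronine added at 40 ng/ml. Each group had 1 library. The deposited data were 2 lists of peak positions, 4643 peaks for OPC and 1752 for OLG, a ratio of 2.65, with no read counts, so the depth of the libraries is unknown. The labels name the same list for the wild-type and the null sample of a cell type, and each list was taken here as the wild-type one. The role of the null and input libraries in making the lists was not stated, and signal in them was not analysed here. How many animals stood behind each library was not stated. A peak list holds no expression values, so the labelled cell types could not be checked against marker genes.

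Growth factors such as PDGF, FGF, IGF and neuregulin bind receptor tyrosine kinases on the cell surface. The activated receptors recruit adaptor proteins that switch on PI3K and AKT, which release the mTOR kinase from inhibition by the TSC complex, and in parallel switch on RAS and the RAF, MEK and ERK kinases. In the oligodendrocyte lineage PDGF and FGF are known as mitogens of the progenitors, and IGF1, AKT, mTOR and ERK signalling are known to promote differentiation and myelin growth.

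ZFP24 peaks lay near 18 of the 45 growth signalling genes. In the OPC list this held for 11 genes, or 24.4%, against 12.8% of all protein-coding genes. In OLG, 11 genes, or 24.4%, also had one, against a background of 6.50%. A peak of either list was found at 40.0% of the genes, where the background was 17.1%. Peaks of both lists were found at 4 genes, or 8.89%, where the background was 2.13%. Among 106 other genes of the same pathways, described below, 6.60% had an OLG peak. The 45 genes were chosen with earlier results of these data known, their OLG count among them. None of their shares, here or in the comparisons below, is therefore independent evidence of an excess. The genes with a peak in OPC alone were Erbb4, Ntrk3, Irs2, Gsk3b, Tsc1, Rptor and Grb2. Those with a peak in OLG alone were Igf1r, Ntrk2, Vegfa, Akt2, Rictor, Map2k1 and Dusp6, and Fgfr1, Pik3r1, Mlst8 and Braf had peaks in both. The other 27 genes had no peak centre within 10 kb in either list. A gene with a peak in 1 list was not shown to differ between cell types, because each list rests on 1 library and the difference was not tested.

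**Figure D1:**
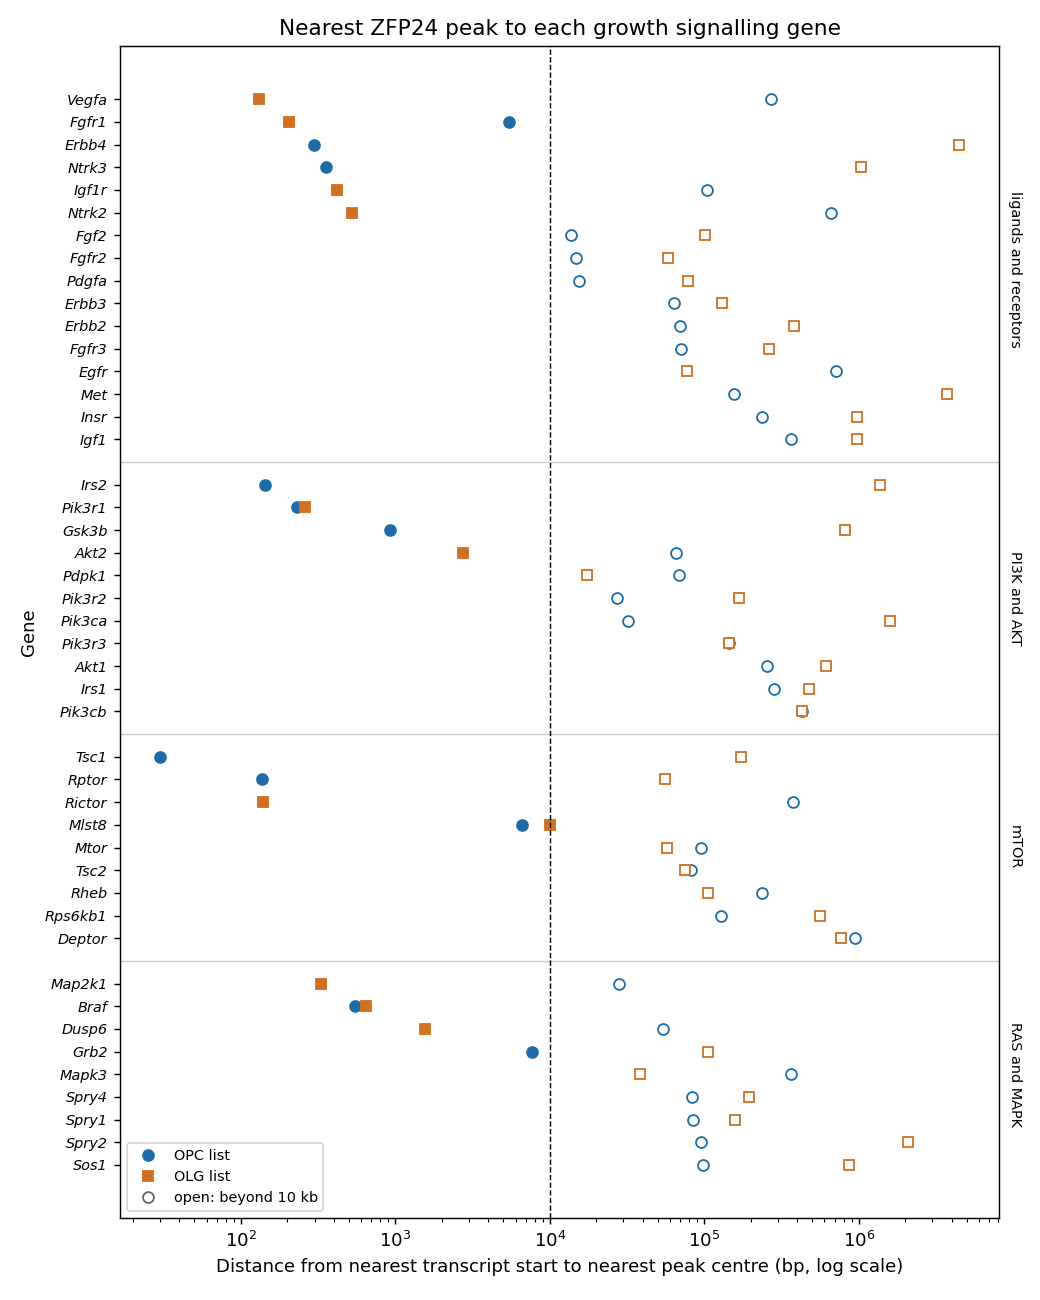
Distance on a log scale, in bp, from the nearest transcript start of each of the 45 genes to the nearest OPC peak centre (blue circles) and OLG peak centre (orange squares), with the 10 kb limit dashed and symbols open beyond it. Filled symbols number 11 in each list, and 4 genes have filled symbols of both colours.

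Most of these peaks sat at the promoter. Of the 11 genes counted for OPC, 8 had their peak within 1 kb of a start, which was 17.8% of the 45 genes against 8.21% of all protein-coding genes. OLG likewise had 8 genes within 1 kb, again 17.8%, against 4.08%. Because of how the genes were chosen, these shares and the distances below add no independent evidence of an excess. Among all protein-coding genes with a peak within 10 kb, 64.4% in OPC and 62.7% in OLG had it within 1 kb, and for the 45 genes this share was 72.7% in both. The median distance to the nearest peak in the OPC list was 70766 bp for the 45 genes and 129269 bp for all protein-coding genes, and in the OLG list 131017 bp and 333727 bp. Near the 10 kb limit, the outermost genes inside it were Grb2 at 7720 bp in OPC and Mlst8 at 9989 bp in OLG, and the first genes outside it were Fgf2 at 13734 bp in OPC and Pdpk1 at 17499 bp in OLG.

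**Figure D2:**
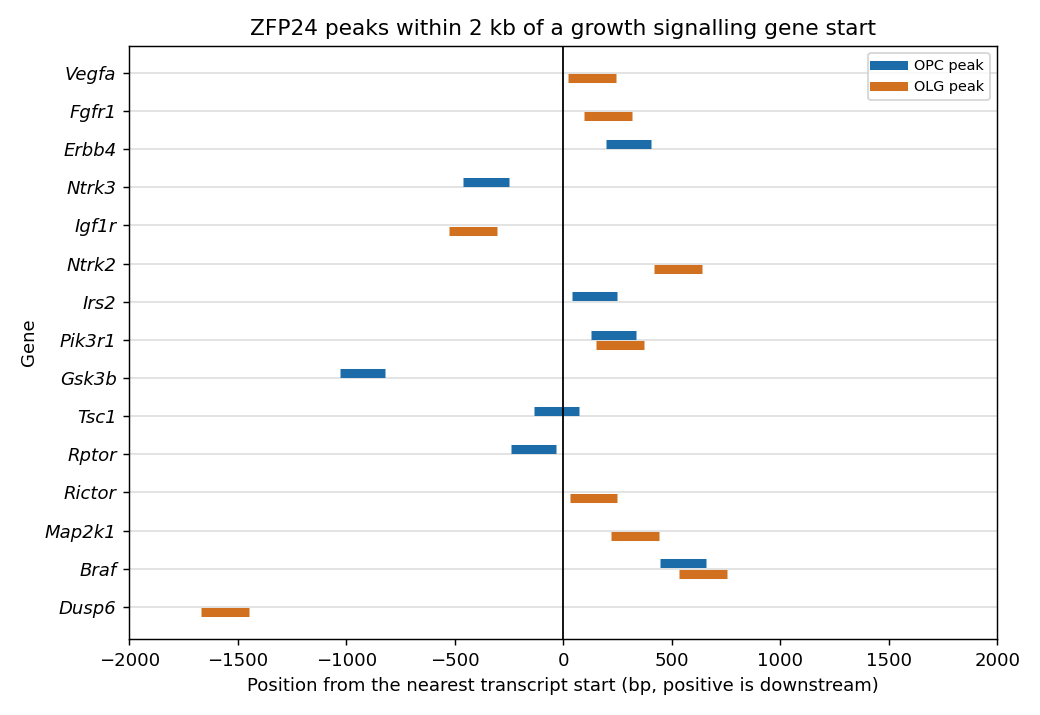
Peaks of OPC (blue) and OLG (orange) within 2 kb of a transcript start, drawn to scale in bp from that start with positive values downstream. Pik3r1 and Braf carry overlapping bars of both colours, and each of the other genes carries a bar of 1 colour.

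Among the receptors, 5 of 12 had a peak within 10 kb in at least 1 list, where the share over all protein-coding genes was 17.1%. Fgfr1, a receptor for fibroblast growth factors, had an OLG peak 205 bp downstream of an internal transcript start, in the 5' UTR (chromosome 8, 25518890 to 25519110). Its OPC peak lay 5451 bp upstream of another start, in an intron (chromosome 8, 25526726 to 25526934), so the centres of the 2 peaks were 7.83 kb apart. Igf1r, the receptor for insulin-like growth factor 1, had an OLG peak 417 bp upstream of its GENCODE start (chromosome 7, 67952300 to 67952520). By the RefSeq transcripts the centre of that peak is in the 5' UTR, 68 bp from a start. The nearest OPC peak was in an intron of the same gene, 104 kb downstream of the start.

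The neurotrophin receptor genes and the neuregulin receptor gene Erbb4 each had a promoter peak in 1 list. Ntrk2, which encodes the BDNF receptor TrkB, had an OLG peak 528 bp downstream of a start (chromosome 13, 58807057 to 58807277), and its nearest OPC peak was 658 kb away. Ntrk3, which encodes the NT-3 receptor TrkC, had an OPC peak 357 bp upstream of a start (chromosome 7, 78578661 to 78578869), and its nearest OLG peak was 1036 kb away. That OPC peak was closer still, at 65 bp, to the start of an antisense gene, Gm9885. Erbb4 had an OPC peak in an intron 299 bp downstream of a start (chromosome 1, 69107353 to 69107561), and its nearest OLG peak was 4490 kb away. Distance alone does not show which of such neighbouring genes a peak belongs to.

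The other 7 receptor genes had no peak within 10 kb. Erbb2 and Erbb3, which encode the partners in neuregulin signalling, had their nearest OPC peaks at 69.9 kb and 63.9 kb. Egfr had an OLG peak in an intron 77.7 kb downstream of a start. For Fgfr3, Met and Insr, the receptor for insulin, the nearest OPC peaks were at 70.8 kb, 156 kb and 237 kb. Fgfr2 is a special case, because its GENCODE model runs for 2.96 Mb across neighbouring genes and its RefSeq model for 104 kb. The OPC peak 14736 bp from its outermost GENCODE start lies outside the RefSeq gene, in an intron of Ctbp2, whose nearest start is 14552 bp away.

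Of the 4 ligand genes, only Vegfa had a peak within 10 kb, a share that 4 genes cannot set apart from the background of 17.1%. Vegfa, which encodes an angiogenic factor, had an OLG peak 132 bp downstream of an internal GENCODE start, in an intron (chromosome 17, 46031114 to 46031334). By the RefSeq transcripts the centre of that peak is 1153 bp from the nearest start, beyond the 1 kb used for promoter peaks. The nearest OPC peak to Vegfa was 270 kb away. Pdgfa, which encodes the main mitogen of progenitors, had an OPC peak 15.4 kb upstream in intergenic sequence, and Fgf2 one 13.7 kb downstream in an intron. Igf1 had its nearest OPC peak at 366 kb and its nearest OLG peak at 968 kb.

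In the PI3K and AKT step, 4 of 11 genes, or 36.4%, had a peak in either list, against 17.1% of all genes. Pik3r1, which encodes the p85 regulatory subunit of PI3K, had overlapping promoter peaks in both cell types. The OPC peak (chromosome 13, 101767882 to 101768090) lay 231 bp and the OLG peak (101767846 to 101768066) 261 bp downstream of the outermost start, with 185 bp in common. A second OPC peak lay in an intron 2407 bp upstream of an internal GENCODE start of the same gene (101694933 to 101695141). By the RefSeq transcripts the centre of that second peak is in the 5' UTR, 674 bp from a start. Irs2, which encodes an adaptor of the insulin and IGF receptors, had OPC peaks 143 bp downstream of its start in the coding exon (chromosome 8, 11008211 to 11008419) and 6137 bp downstream in an intron. Its nearest OLG peak was 1377 kb away.

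Kinases below PI3K were represented by 1 gene in each list. Gsk3b, a kinase that AKT inhibits, had an OPC peak 926 bp upstream of its start (chromosome 16, 38087971 to 38088179), with the nearest OLG peak at 812 kb. Akt2 had an OLG peak in an intron 2745 bp downstream of a start (chromosome 7, 27611297 to 27611517), with the nearest OPC peak at 66.1 kb. Akt1 and Pdpk1, which encodes the kinase PDK1 that activates AKT, had no peak within 10 kb, and neither did the catalytic subunit genes Pik3ca and Pik3cb, the other regulatory subunit genes Pik3r2 and Pik3r3, or the adaptor gene Irs1. The OPC peak closest to Pik3ca, at 32.2 kb, was 105 bp from the start of the neighbouring gene Zmat3. The OLG peak closest to Pdpk1 was 1038 bp from the start of Atp6v0c. The 2 peaks closest to Pik3cb, at 429 kb in both lists, overlapped each other at Armc8, and those closest to Pik3r3, at 145 kb, overlapped at Lrrc41.

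In the mTOR arm, 4 of 9 genes, or 44.4%, had a peak in either list, against the same 17.1%, and the subunit genes that define the 2 mTOR complexes had theirs in different lists. Rptor, which encodes Raptor of mTORC1, had an OPC peak 137 bp upstream of its GENCODE start and, by RefSeq, in the 5' UTR (chromosome 11, 119602908 to 119603116). Its nearest OLG peak was 55.4 kb away. Rictor, which encodes the defining subunit of mTORC2, had an OLG peak 139 bp downstream of its start in an intron (chromosome 15, 6708412 to 6708632), and its nearest OPC peak was 374 kb away. Tsc1, which encodes hamartin of the inhibitory TSC complex, had an OPC peak over its start, with the centre 30 bp upstream (chromosome 2, 28641103 to 28641311). The nearest OLG peak to Tsc1 was 173 kb away.

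Mlst8, which encodes a subunit common to both mTOR complexes, was counted in both lists through peaks that were nearer to another gene. Its OPC peak lay 6635 bp upstream and its OLG peak 9989 bp upstream, and the OLG peak was 192 bp from a start of Caskin1. The 2 peaks were 3.35 kb apart. Mtor itself had its nearest peaks at 94.8 kb in OPC and 57.3 kb in OLG. The partner of hamartin, Tsc2, had them at 82.4 kb and 75.1 kb. Rheb, the GTPase that activates mTORC1, Deptor, an inhibitor of both complexes, and Rps6kb1, which encodes the S6 kinase, were all over 100 kb from a peak in both lists.

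In the RAS and MAPK arm, 4 of 9 genes, again 44.4%, had a peak in either list, against 17.1%. Braf, which encodes a RAF kinase, had overlapping intronic peaks in both cell types, at 552 bp downstream of its start in OPC (chromosome 6, 39724807 to 39725015) and at 643 bp in OLG (39724710 to 39724930), with 124 bp in common. Map2k1, which encodes the next kinase, MEK1, had an OLG peak 331 bp downstream of its start in the 5' UTR (chromosome 9, 64253190 to 64253410). The OPC peak closest to Map2k1, at 28.0 kb, was 40 bp from the start of Tipin. Grb2, which encodes the adaptor that links receptors to RAS, had an OPC peak in an intron 7720 bp downstream of a start (chromosome 11, 115691483 to 115691691). Sos1, which encodes the exchange factor that Grb2 carries, and Mapk3, which encodes ERK1, had no peak within 10 kb.

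Of the 4 genes for feedback inhibitors of the pathway 1 had a peak, which with a background of 17.1% is no result about them. Dusp6, which encodes a phosphatase that inactivates ERK, had an OLG peak 1558 bp upstream of its start (chromosome 10, 99261563 to 99261783), with the nearest OPC peak at 53.7 kb. The Sprouty genes Spry1, Spry2 and Spry4 had their nearest OPC peaks at 84.8 kb, 94.8 kb and 83.1 kb, and their nearest OLG peaks further away, at 159 kb, 2080 kb and 195 kb.

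Every arm had genes with an OPC peak and genes with an OLG peak. In OPC, peaks were found at 3 of 16 ligand and receptor genes, 3 of 11 PI3K and AKT genes, 3 of 9 mTOR genes and 2 of 9 RAS and MAPK genes, or 18.8%, 27.3%, 33.3% and 22.2%, against 12.8% of all genes. In OLG the counts in the same order were 4, 2, 2 and 3, or 25%, 18.2%, 22.2% and 33.3%, against 6.50%. With 9 to 16 genes in an arm, a single gene moves its share by several percentage points, and no arm was tested against another.

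ZFP24 is known to bind tandem repeats of TCAT, and 4 of the growth signalling genes held such a repeat at an intronic OPC peak. A tract was counted when at least 12 bases repeated TCAT without a break, counting both strands and every phase, and the 200 bp centred on each peak were searched. Peaks inside genes were taken by the RefSeq gene limits, which avoid the long Fgfr2 model. By that rule an OPC peak was centred in 12 of the 45 genes, or 26.7%, against 12% of protein-coding genes, and an OLG peak in 10, or 22.2%, against 5.81%. The 45 genes were longer, with a median of 64.6 kb against 17.4 kb for all protein-coding genes, and the part of gene length in these counts was not tested. Of the OPC peaks in the 45 genes that were over 1 kb from any GENCODE protein-coding start, 4 of 10 held a tract, against 18.7% of the 1624 such OPC peaks in all genes. Neither of the 2 such OLG peaks, in Egfr and Akt2, held one, where the share of all such OLG peaks was 7.65%. With 10 and 2 peaks these shares are uncertain, and neither was tested against that of all genes.

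The peaks with these 4 tracts are shown because they lie inside the genes. Each line gives the whole OPC peak on the strand of the gene, 5' to 3', from GRCm38, with tracts of at least 12 bases in capitals.
Grb2, chr11:115691483-115691691, minus strand: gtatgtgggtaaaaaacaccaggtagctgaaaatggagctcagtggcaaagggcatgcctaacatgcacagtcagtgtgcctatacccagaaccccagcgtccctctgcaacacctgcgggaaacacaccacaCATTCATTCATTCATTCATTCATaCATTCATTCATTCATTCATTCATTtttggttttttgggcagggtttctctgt
Fgf2, chr3:37362480-37362688, plus strand: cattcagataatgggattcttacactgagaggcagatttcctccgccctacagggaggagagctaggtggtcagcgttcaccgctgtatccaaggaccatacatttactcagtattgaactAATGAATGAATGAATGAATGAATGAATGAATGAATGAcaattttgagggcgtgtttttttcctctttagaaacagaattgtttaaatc
Igf1r, chr7:68056480-68056688, plus strand: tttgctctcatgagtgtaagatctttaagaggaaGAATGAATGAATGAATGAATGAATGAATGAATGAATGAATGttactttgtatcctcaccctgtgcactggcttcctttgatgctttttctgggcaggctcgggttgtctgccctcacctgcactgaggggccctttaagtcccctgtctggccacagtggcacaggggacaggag
Fgfr2, chr7:130184412-130184620, minus strand: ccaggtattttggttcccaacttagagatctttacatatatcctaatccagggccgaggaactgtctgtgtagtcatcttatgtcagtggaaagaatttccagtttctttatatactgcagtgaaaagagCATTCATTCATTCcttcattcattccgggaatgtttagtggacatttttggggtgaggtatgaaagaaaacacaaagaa

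These tracts were 24 bases long in Grb2, 37 in Fgf2, 41 in Igf1r and 13 in Fgfr2. Grb2 held a second tract of 23 bases, parted from the first by 1 base. The repeat runs as TCAT on the coding strand of Grb2 and Fgfr2, and as its complement ATGA on that of Fgf2 and Igf1r. Their distances from the nearest start of the gene were 7.72 kb, 13.7 kb, 104 kb and 81.7 kb, so that only the Grb2 site fell within the 10 kb window. None of the 4 overlapped an OLG peak. The other 6 OPC peaks without a tract lay in Fgfr1, Irs2, Pik3r1, Rptor, Igf1r and Ntrk3, from 2407 bp to 173188 bp from the nearest GENCODE start of the gene. The one in Pik3r1 is nearer to a RefSeq start, at 674 bp. Outside the genes, an intergenic OLG peak 24407 bp upstream of Map2k1 held a tract of 40 bases, but Tipin was nearer, at 3565 bp. Tracts were also held by the nearest OPC peak to Spry2, with 27 bases, and by the nearest OLG peaks to Mtor and Pdgfa, with 19 and 24 bases. Those 3 peaks lay 94.8 kb, 57.3 kb and 78.1 kb from the genes, and for Mtor and Pdgfa another gene was nearer. Igf1r thus carried both kinds of site, a repeat-free promoter peak in OLG and a repeat in an intron in OPC, where repeat-free means without a tract of 12 bases.

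Promoter peaks of the growth signalling genes held no such tract. None of the 8 OPC peaks and none of the 8 OLG peaks within 1 kb of a start had one, where 2.55% of 1647 OPC peaks (exact 95% interval 1.84 to 3.43) and 2.74% of 840 OLG peaks (1.74 to 4.08) within 1 kb of any protein-coding start did. For 0 of 8 peaks the same interval ran from 0% to 36.9% in each list, so the absence is no result about these genes. All these intervals describe counting error alone. The longest run of the repeat at these promoter peaks was 9 bases, in the OLG peak of Igf1r. Of the 45 genes, 38 had a promoter sequence, a short window around a start, in the RefSeq table of GRCm38.p6. None of the 38 held a TCAT tract of 12 bases, against 0.0945% of 32817 promoters, and none held one of 8 bases, against 3.22%. With shares this low, 38 promoters are too few to set these genes apart from all promoters.

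The promoter peaks of these genes were rich in G, C and CpG, as were the promoter peaks of all genes. The 8 OPC promoter peaks had a median GC content of 60.5% in the 200 bp around the centre and a range of 47.5% to 71%. The 8 OLG promoter peaks had a median of 69% and a range of 49.5% to 72.5%. All promoter peaks had medians of 64% in OPC and 68.5% in OLG. Sequence 2 kb to the right of the same peaks had medians of 39.5% and 43%. The number of CpG pairs in 200 bp was 12 at the median OPC promoter peak of these genes, with a range of 6 to 28, and 22.5 at the median OLG peak, with a range of 7 to 27. The corresponding medians over all promoter peaks were 15 and 19. A difference between the lists in GC content was not tested at these genes.

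**Figure D3:**
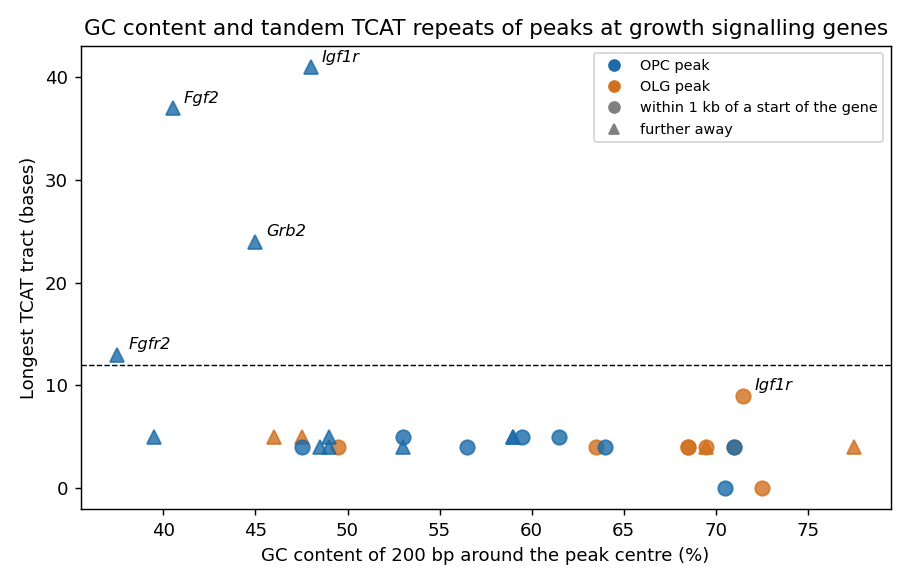
GC content, in percent, against the longest TCAT tract, in bases, for peaks within 10 kb of a start of the 45 genes or inside them, 19 in OPC (blue) and 12 in OLG (orange), with circles for peaks within 1 kb of a start and triangles for peaks further away. The 4 peaks above the dashed line at 12 bases are OPC triangles with a GC content under 50%.

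Sequences of a CpG-rich pair, of a peak with few CpG and of a site in both lists show the range. Each is on the strand of its gene, 5' to 3', from GRCm38, with every CpG in capitals, and the Braf line is the 124 bp that its OPC and OLG peaks share.
Rictor, OLG, chr15:6708412-6708632, plus strand: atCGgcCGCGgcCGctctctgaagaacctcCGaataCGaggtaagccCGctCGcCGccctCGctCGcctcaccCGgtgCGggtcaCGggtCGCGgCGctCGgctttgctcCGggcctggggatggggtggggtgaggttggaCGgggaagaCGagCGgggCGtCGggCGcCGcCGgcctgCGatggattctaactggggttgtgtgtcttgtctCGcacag
Dusp6, OLG, chr10:99261563-99261783, plus strand: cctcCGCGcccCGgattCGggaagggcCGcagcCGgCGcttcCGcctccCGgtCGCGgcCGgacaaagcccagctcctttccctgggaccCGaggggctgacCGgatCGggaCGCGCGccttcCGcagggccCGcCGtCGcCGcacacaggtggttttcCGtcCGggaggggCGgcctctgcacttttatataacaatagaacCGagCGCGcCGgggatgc
Gsk3b, OPC, chr16:38087971-38088179, plus strand: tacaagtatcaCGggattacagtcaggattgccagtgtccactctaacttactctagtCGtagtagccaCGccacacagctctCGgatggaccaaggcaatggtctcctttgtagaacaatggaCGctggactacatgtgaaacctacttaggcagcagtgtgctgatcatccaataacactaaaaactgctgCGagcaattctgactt
Braf, both lists, chr6:39724807-39724930, minus strand: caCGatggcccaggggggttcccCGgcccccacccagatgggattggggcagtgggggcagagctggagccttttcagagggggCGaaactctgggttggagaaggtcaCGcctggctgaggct

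Over their whole length these stretches held 29 CpG in Rictor, 30 in Dusp6, 6 in Gsk3b and 4 in the Braf overlap. In the 200 bp used for the ranges above, the counts were 25 in Rictor, 26 in Dusp6 and 6 in Gsk3b. The Braf peaks had 10 in OPC and 7 in OLG. The Dusp6 peak, over 1 kb from a start, is not one of the promoter peaks in those ranges. The centre of the Rictor peak is in an intron, and the Dusp6 and Gsk3b peaks lie upstream of their genes. The Braf peaks had a GC content of 64% in OPC and 63.5% in OLG, and those of Pik3r1, the other gene with a shared site, 71% in both.

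The share of all genes with a peak rose with GC content around the start, so the backgrounds were also read within 4 groups of genes of about equal size, ordered by the GC content of 500 bp to each side of the outermost start. The 45 genes had a median GC content of 60.9% there, against 54.8% for all protein-coding genes, and 22 of them fell in the most GC-rich group. Within it an OPC peak was found at 6 of 22 genes, or 27.3%, against a background of 20.1%, and an OLG peak at 5 of 22, or 22.7%, against 11.5%. In the next group, 1 of 16 genes had an OPC peak, or 6.25%, against 15.5%, and 3 of 16 an OLG peak, or 18.8%, against 7.40%. In the group below that, Fgfr1, Rptor and Mlst8 had an OPC peak and Fgfr1, Mlst8 and Dusp6 an OLG peak, 3 of 5 genes each, against 11.5% and 5.21%. The group with the lowest GC content held 2 of the genes, of which Ntrk3 had an OPC peak and neither had an OLG peak, against 3.69% and 1.78%. Fgfr1, Ntrk3, Vegfa, Akt2 and Grb2 were among the genes counted through other starts than the outermost, where GC content was taken. For Grb2 it was 68.4% there and 45% at the OPC peak. Mlst8 was counted through peaks nearer to Caskin1. The GC group of such genes therefore need not describe the sequence at the peak. The OPC background also rose with the number of distinct starts, from 11.1% with 1 start to 21.8% with 5 or more. Among the 45 genes these shares were 17.6% and 28.6%, 3 of 17 and 2 of 7. With 2 starts an OPC peak lay at 3 of 9, or 33.3%, against 12.2%. With 3 or 4 starts it was 3 of 12, or 25%, against 16.1%. For OLG the background ran from 6.03% to 8.97%, and the shares of the 45 genes from 8.33% to 57.1%. These are small numbers, and the parts of GC content and number of starts in the counts were not tested further.

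Other genes of the same pathways, 106 genes from a second list, had a share near OPC peaks close to that of the 45 genes, and a share near OLG peaks close to that of all genes. An OPC peak lay within 10 kb of 26 of the 106, or 24.5%, and an OLG peak within 10 kb of 7, or 6.60%, against the backgrounds of 12.8% and 6.50%. The share in OLG was therefore 24.4% in the one list and 6.60% in the other. Both gene lists were chosen with earlier results of these data known, among them the OLG count of the 45 genes. The 2 lists were not tested against each other. By arm, OLG peaks lay near 3 of 30 other ligand and receptor genes, 1 of 20 PI3K and AKT genes, 1 of 26 mTOR genes and 2 of 30 RAS and MAPK genes. OPC peaks lay near 7, 7, 5 and 7 of the same genes. The 106 genes were also richer in GC at the outermost start than all protein-coding genes, with medians of 62.0% and 54.8%. They were longer too, with medians of 48.5 kb and 17.4 kb. The part of either property in their counts was not tested.

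**Figure D4:**
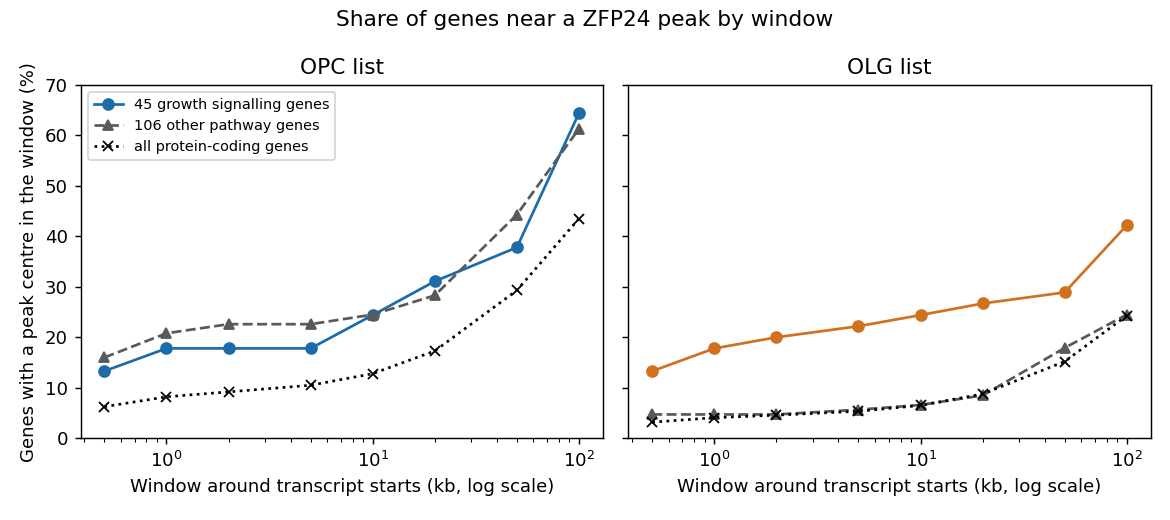
Share of genes, in percent, with a peak centre within a window of 0.5 to 100 kb (log axis) of a transcript start, for the OPC list on the left and the OLG list on the right. The 45 genes (filled circles) lie close to the 106 other pathway genes (triangles) in OPC, and lie above them in OLG at every window drawn, where the other pathway genes run close to all protein-coding genes (crosses).

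Within 1 kb of a start, 22 of the 106 other genes had an OPC peak, or 20.8%, against 8.21% of all protein-coding genes. They included the ligand genes Fgf9, 215 bp upstream, Nrg2, 153 bp downstream, and Nrg3, 236 bp upstream, which encodes a neuregulin. Bdnf, whose product binds TrkB, had OPC and OLG peaks 3 bp downstream and 368 bp upstream of the same internal start. Further receptor genes were Igf2r at 7 bp, Epha4 at 63 bp and Alk at 622 bp. In the PI3K and AKT step they included Pik3r4 at 55 bp, Sgk1 at 173 bp, Foxo1, which encodes a transcription factor that AKT inactivates, at 249 bp, and Gab1 at 812 bp.

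The mTOR genes of that list with an OPC promoter peak were Tbc1d7, which encodes the third subunit of the TSC complex, at 39 bp, Eif4ebp1, a target of mTORC1, at 109 bp, Rps6 at 221 bp and Prkaa2 at 347 bp. The RAS and MAPK genes were Rasa1 at 111 bp, Sos2 at 227 bp, Ptpn11, which encodes the phosphatase SHP2, at 271 bp, Spred1 at 479 bp, Etv5 at 650 bp and Dusp4 at 861 bp. In OLG, 5 of the 106 had a promoter peak, or 4.72%, which is near the 4.08% of all protein-coding genes. Among them were Bdnf, Nrg3 at 417 bp, Ret at 160 bp and Sgk1 at 199 bp.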

How the data were processed

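ZFP24 ChIP-seq was done on wild-type and null OPC and OLG with a pooled input, 5 libraries with 1 per group. Per the labels' protocols, reads were 75 nt single-end and aligned to mm10, and the submitters' processing notes name BWA (version not given) and HOMER 4.8.3. The authors deposited peak positions with a name for each peak, 209 bp wide in OPC and 221 bp in OLG, and no score. For the peak calling, the options, the threshold and the use made of null and input libraries were not stated, and list length can move with depth and background.

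Peaks were compared with GENCODE M21 basic and GRCm38.p6, where 0 peaks ran past a chromosome end, and coordinates are 1-based. Distances ran from peak centre to the nearest transcript start. Of 107 other pathway genes, 106 were matched. Named were all genes of the set with a peak within 10 kb, the nearest outside it, and other pathway genes within 1 kb, of which some are counted but not reported here by name. The genes and lists were chosen with earlier results of these data known, among them an excess of OLG peaks near growth signalling genes, and no test was run. Python 3.11.15, numpy 2.4.6, scipy 1.17.1 and pysam 0.24.0 were used. On simulated data, 200 of 200 planted distances and 200 of 200 planted tracts were recovered in a run over 21755 genes.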

Additional observations from a re-analysis of the deposited data

How the results depend on the processing

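Counts of the 45 genes were taken again with other windows, peak edges, transcript sets, gene assignments and peaks, with RefSeq starts and windows of 0.5, 20 and 100 kb added after seeing the data. With a 0.5 kb window the OPC count was 6 and the OLG count 6, or 13.3% each, against backgrounds of 6.25% and 3.18%. With a 50 kb window the counts were 17 and 13, or 37.8% and 28.9%, against 29.3% and 15.2%. With a 100 kb window they were 29 and 19, or 64.4% and 42.2%, against 43.5% and 24.3%. With only the lower-numbered peaks of each chromosome 6 genes had an OLG peak, against 3.79%, and 8 had an OPC peak, against 7.74%. The meaning of the number in the peak names was not stated. With tracts of 8 bases 2 peaks within 10 kb held a repeat in place of 1, the second being the OLG peak of Igf1r. All other counts were within 1.5 times of those reported, from 8 to 14 genes in OPC and from 8 to 13 in OLG. That limit compares counts alone, and the background share changes with the window. With the outermost start of each gene alone there were 8 in OPC, against 12.1%. RefSeq starts gave the same genes, 11 in each list, with none gained or lost. No paired analysis was possible because each group had 1 library and no test was run. Read depth is unknown, so the absence of a peak is not evidence that binding was absent.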
